A study of Mus musculus with 24 samples.

Results

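Dimethylation of histone H3 at lysine 9 (H3K9me2) was compared with input chromatin in the remote myocardium of 6 mice, the heart muscle that kept its blood supply while another territory of the same heart went through ischemic preconditioning. All 6 H3K9me2 and all 6 input libraries of this biopsy were taken, 12 of the 24 libraries of the series, paired by mouse, and every listed region was used. The mice were C57BL6 animals aged 12 months, 3 female (17, 19 and 30) and 3 male (22, 23 and 27), with no transgene named. All had received the same preconditioning, 4 cycles of 5 min of ischemia and 5 min of reperfusion followed by 30 min of reperfusion, so the groups share the procedure and differ in whether chromatin was precipitated with the H3K9me2 antibody. Sham hearts were not analysed here. The biopsies were whole tissue, in which a mark carried by fewer cells and a thinner mark in each cell cannot be told apart. A DNA assay gives no expression level, so the labelled tissue could not be checked by marker genes.

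H3K9me2 is a mark of repressed chromatin that spreads in broad domains over gene-poor and lamina-associated DNA. It is laid down mainly by the paired methyltransferases encoded by Ehmt2 (G9a) and Ehmt1 (GLP), bound by readers such as the HP1 proteins, and removed by jumonji and KDM3 demethylases. In differentiated cells such as cardiomyocytes it is known for covering genes of other lineages, whereas starts of active genes carry other marks.

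Promoters in regions lower and higher in H3K9me2 differed in their CpG content as groups, and 6 are printed as examples of that difference and of an exception. Each is the stretch of 250 bases before a RefSeq start on GRCm38.p6, the assembly of mm10, read 5′ to 3′ on the strand of the gene, with every CpG in capitals. The upper 3 lie in regions called lower in H3K9me2 than in input, namely Ubtf (chr11:102317872-102318121, minus strand, 32 CpGs), which encodes a factor of ribosomal RNA transcription, Hnrnpa0 (chr13:58128557-58128806, minus strand, 46 CpGs), an RNA-binding protein, and Tmpo (chr10:91171620-91171869, minus strand, 32 CpGs), a lamina-associated protein of the inner nuclear membrane. The odorant receptor gene Olfr12 (chr1:92619631-92619880, plus strand) and the sperm protamine gene Prm1 (chr16:10796824-10797073, minus strand) lie in regions called higher and hold 0 CpGs. The last, Kcnj6 (chr16:94997697-94997946, minus strand), which encodes a potassium channel subunit, is shown as an exception, since it holds 26 CpGs in a region called higher. Exceptions occurred on the lower side too: the stretches of Gapdh and Lmna hold 8 and 4 CpGs and 0 GC boxes in regions at -1.83 and -1.43.
Ubtf: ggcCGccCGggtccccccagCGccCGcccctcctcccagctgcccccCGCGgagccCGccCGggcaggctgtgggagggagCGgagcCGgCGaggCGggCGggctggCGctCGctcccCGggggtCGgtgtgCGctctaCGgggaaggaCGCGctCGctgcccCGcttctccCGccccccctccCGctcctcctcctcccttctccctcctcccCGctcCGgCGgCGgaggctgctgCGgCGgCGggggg
Hnrnpa0: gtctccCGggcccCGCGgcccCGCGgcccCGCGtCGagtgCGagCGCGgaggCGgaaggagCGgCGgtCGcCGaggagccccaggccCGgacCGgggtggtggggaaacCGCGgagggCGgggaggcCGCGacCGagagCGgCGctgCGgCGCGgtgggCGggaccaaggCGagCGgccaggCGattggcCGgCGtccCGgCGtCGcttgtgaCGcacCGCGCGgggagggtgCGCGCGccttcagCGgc
Tmpo: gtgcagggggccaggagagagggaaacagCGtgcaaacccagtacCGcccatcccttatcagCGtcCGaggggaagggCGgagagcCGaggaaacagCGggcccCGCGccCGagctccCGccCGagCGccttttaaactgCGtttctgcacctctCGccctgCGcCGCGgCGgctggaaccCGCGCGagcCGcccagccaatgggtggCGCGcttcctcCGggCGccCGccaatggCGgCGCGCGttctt
Olfr12: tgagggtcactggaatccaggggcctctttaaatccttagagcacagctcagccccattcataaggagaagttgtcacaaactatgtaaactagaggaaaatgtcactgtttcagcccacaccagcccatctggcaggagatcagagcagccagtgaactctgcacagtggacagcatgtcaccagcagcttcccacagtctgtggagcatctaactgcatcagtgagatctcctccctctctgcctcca
Prm1: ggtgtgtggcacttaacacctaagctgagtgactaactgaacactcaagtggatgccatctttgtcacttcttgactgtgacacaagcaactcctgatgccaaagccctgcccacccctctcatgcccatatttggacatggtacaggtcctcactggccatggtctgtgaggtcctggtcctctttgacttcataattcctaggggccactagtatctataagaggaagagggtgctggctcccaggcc
Kcnj6: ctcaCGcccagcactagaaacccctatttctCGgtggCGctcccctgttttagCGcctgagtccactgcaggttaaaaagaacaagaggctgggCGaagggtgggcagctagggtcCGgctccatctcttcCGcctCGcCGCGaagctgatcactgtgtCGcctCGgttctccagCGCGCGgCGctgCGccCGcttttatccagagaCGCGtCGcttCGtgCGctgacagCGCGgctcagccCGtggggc
The regions that hold these stretches had log2 fold changes of H3K9me2 over input of -2.19 for Ubtf, -2.03 for Hnrnpa0, -2.80 for Tmpo, 0.84 for Olfr12, 0.73 for Prm1 and 0.78 for Kcnj6. Those of Ubtf, Hnrnpa0 and Tmpo are not typical in size. They are among the 40 regions called at -2 or below, against a median of -0.71 over regions called lower. Their CpG counts also exceed 24, the median of the 300-base promoter windows in lower regions. The value of Tmpo rests on only 9 counts over all H3K9me2 libraries, so its size is uncertain. The GC box GGGCGG, searched on both strands and itself overlapping a CpG, occurred 5 times in the Ubtf stretch, 4 times in that of Tmpo and 2 times in that of Hnrnpa0. It was found 0 times in the stretches of Olfr12, Prm1 and Kcnj6.

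Counts covered 53386 listed regions with a median width of 2600 bases, of which 40767 passed the filter on low counts and were tested. The filter asks for enough counts in as many libraries as 1 group holds, so either kind of library alone can pass a region. Totals per library ran from 443261 to 981763 counts for H3K9me2 (median 687467) and from 1405503 to 1770520 for input (median 1605811). Libraries were scaled to their totals in the tested regions, adjusted by TMM (a trimmed mean of the ratios between libraries), so higher and lower below mean a larger or smaller share than in input, relative to the other regions, and a change alike everywhere could not be seen. Values per library are given as CPM, the count divided by that adjusted total and multiplied by 1000000. Mouse 23 stood apart by the size of its differences: its medians over the regions called higher and those called lower lay 1.52 apart on the log2 scale, against 1.14 to 1.29 in the other 5 mice.

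H3K9me2 and input differed widely and in both directions. By edgeR's quasi-likelihood test with the mouse as a block, at a Benjamini-Hochberg FDR of 0.05, 16907 of 40767 regions were called (41.5%), 8551 higher (21.0%) and 8356 lower (20.5%). The median log2 fold change was 0.62 among the higher and -0.71 among the lower, and the lower tail was the longer: 1643 lower regions lay at -1 or below and 525 higher ones at 1 or above. At -2 or below there were 40 regions and at 2 or above there were 0. All 6 mice had the sign of the call in 63.3% of the higher and 71.3% of the lower regions, against 6.02% of those not called. In 2764 higher regions (6.78% of those tested) and 3445 lower ones (8.45%) no H3K9me2 library overlapped any input library. With DESeq2 4224 were called higher and 4068 lower, and all 8292 carried the same call in edgeR. The authors' deposited table gives 15223 regions at an FDR under 0.05 for these libraries, 14561 of them called here.

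The direction varied with where a region lay with respect to genes. Regions within 2 kb of a gene start, which held 24.2% of input counts on average (23.8 to 24.8% over the mice), held 20% of H3K9me2 counts (19.2 to 20.8%). The ranges of the 6 mice did not overlap, and the log2 ratio of the shares averaged -0.277 (SD 0.022, n = 6, exact paired permutation test, adjusted p = 0.0312). Intergenic regions moved the other way, from 15.2% of input (14.9 to 15.5%) to 18.9% of H3K9me2 (18.2 to 20%), a log2 ratio of 0.310 (SD 0.030, n = 6, exact adjusted p = 0.0312). Gene starts whose site was not given, as on chromosome 18, were counted among the other gene ends. Other gene ends lay at -0.111 and other gene bodies at 0.067 with the same exact adjusted p. With 6 mice the smallest unadjusted p this test can give is 0.03125, so it does not rank these places. Of the regions at a gene start 40.4% were called lower and 9.78% higher, against 5.91% and 41.7% of intergenic ones.

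The share of H3K9me2 grew with distance from genes. Intergenic regions under 10 kb from a gene had a mean log2 share ratio of 0.202 (0.194 to 0.209 over the mice), those at 10 to 50 kb 0.380 (0.336 to 0.466), and those at 50 to 200 kb 0.620 (0.532 to 0.769). Beyond 200 kb only 21 regions were listed, at 0.639, with 19 called higher and 0 lower. Measured from the region's centre to the nearest RefSeq start, over 30146 regions for which that start was known, the median log2 fold change climbed without a break from -0.41 under 1 kb, through 0.06 at 10 to 20 kb, to 0.56 at 100 to 200 kb. Under 1 kb 46.4% of regions were lower and 7.52% higher, whereas at 100 to 200 kb 59.8% were higher and 2.05% lower.

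**Figure D1:**
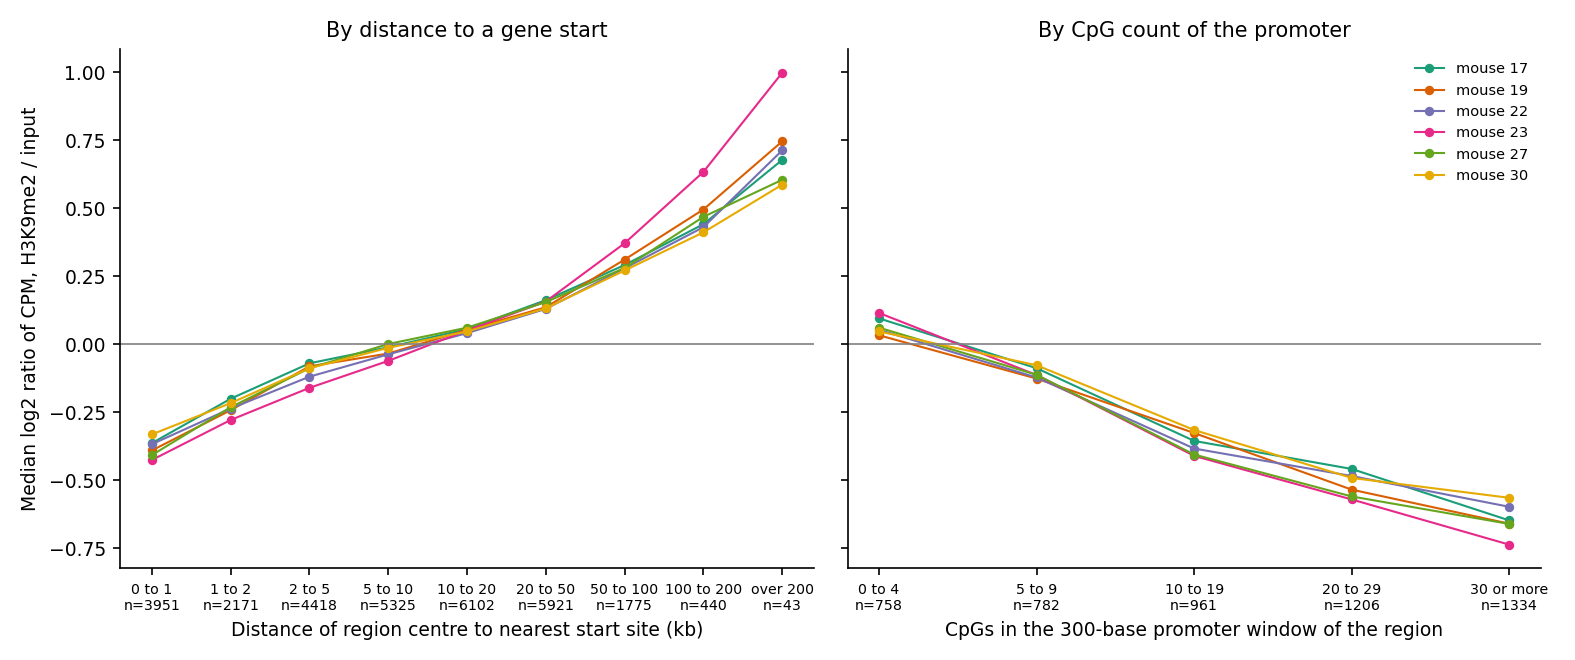
Median log2 ratio of H3K9me2 to input CPM in each of the 6 mice (1 line per mouse), by distance of the region's centre from the nearest start (left) and by CpGs in the promoter window the region holds (right), with the number of regions under each class. Every mouse runs from below 0 next to starts to above 0 beyond 10 kb, and from near 0 at promoters with 0 to 4 CpGs to between -0.74 and -0.56 at those with 30 or more.

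The values varied with both place and gene density. Regions were split into quartiles by the number of genes within 500 kb on either side. Intergenic regions in the sparsest quartile (up to 18 genes) had a median log2 fold change of 0.55, with 60.9% called higher and 1.79% lower, and in the densest (over 33 genes) of 0.07, with 16.6% and 13.6%. Gene starts went from -0.13 in the sparsest to -0.48 in the densest quartile, where 52.0% were lower and 4.45% higher. Gene bodies changed sign along the way, from 0.30 to -0.20. Within every quartile the order from gene start to intergenic was the same.

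**Figure D2:**
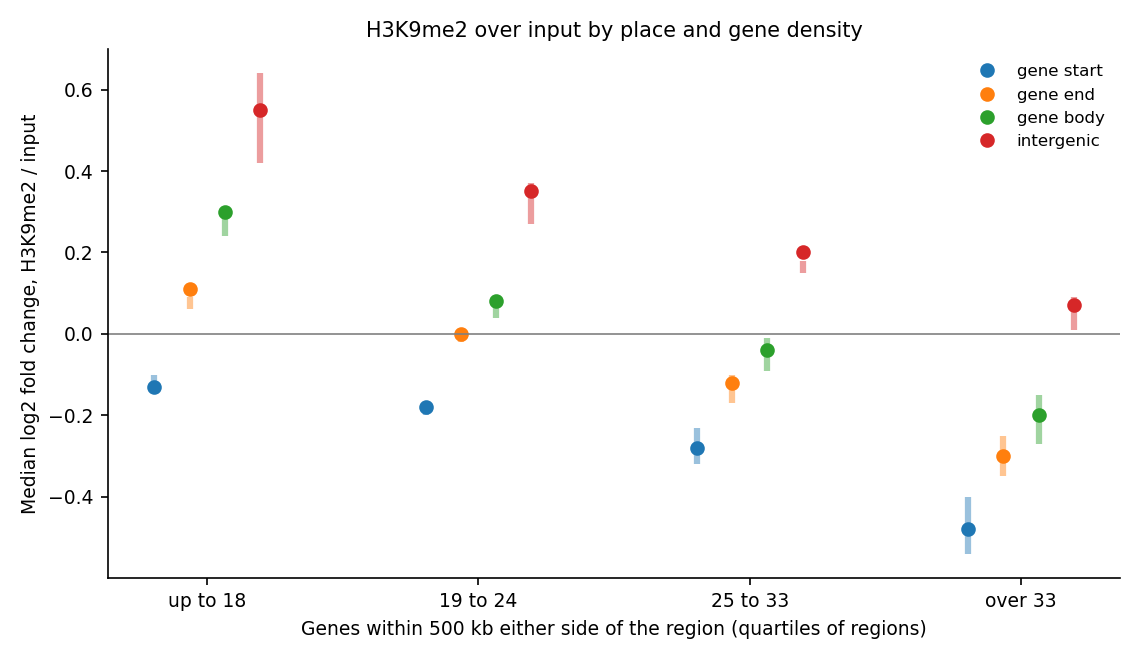
Median log2 fold change of H3K9me2 over input (points, edgeR fit) by place and by quartile of gene density, with bars for the range of the medians of single mice taken from CPM ratios, which is why a point can lie past its bar. Values fall from left to right in each place, and intergenic regions stay above and gene starts below the other places, from 0.55 for intergenic regions in the sparsest quartile to -0.48 for gene starts in the densest.

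Long genes lay above input, as the space between genes did. Regions inside genes over 300 kb held a larger share of H3K9me2 than of input, by 0.354 on the log2 scale (0.319 to 0.440 over the mice), and those in genes of 100 to 300 kb by 0.138. In genes of 20 to 100 kb the ratio was -0.009 (exact paired permutation adjusted p = 0.156), and in genes under 20 kb -0.124. Within single genes, regions at a start mostly lay below those in the body. A region counted as the start of a gene if it lay within 2 kb of either end of that gene and of any RefSeq start. It can thus be the start of a neighbour at the far end of the gene. In 2648 genes with a tested region at such a start and another in the body, the median was -0.47 at the start and -0.08 in the body, and the start lay below the body in 79.6%. In the 55 such genes over 300 kb the start was at -0.45 and the body at 0.48, with the start below the body in 54. A start called lower beside a body called higher occurred in 207 genes and the reverse in 6.

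Promoters with many CpGs lay lowest in H3K9me2 relative to input. RefSeq windows of 300 bases around starts (250 before, 50 after) were counted in the 5041 tested regions that hold one. Regions whose window had 0 to 4 CpGs had a median log2 fold change of 0.09, with 26.5% called higher and 19.0% lower. At 10 to 19 CpGs the median was -0.40, at 20 to 29 it was -0.54, and at 30 or more it was -0.68, where 67.8% of 1334 regions were lower and 12 regions were higher. Windows in lower regions held a median of 24 CpGs and in higher regions 4, against 15 in regions not called and 19 over all 6754 windows in a tested region. Over all 32851 windows of the table, most of them outside the tested regions, the median was 7. The GC box lay in 68.7% of the windows in lower regions, in 24.1% of those in higher ones, in 50.9% of those in regions not called and in 58.1% of all in a tested region, against 35.7% of the whole table. GC content moved with the calls too, with medians of 64.3% in lower and 51.7% in higher regions, and its part in the result was not tested.

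Among well-covered regions that overlap no other, the furthest above input lay inside or beside 5 protein-coding and 2 noncoding genes and, in 3 cases, between genes. The highest was in the body of Htr4, a serotonin receptor gene (chromosome 18, 62475600 to 62477999). It held 34.5 to 67.1 CPM in H3K9me2 (median 45.8) and 14.7 to 23.1 in input (median 18.8), so that every H3K9me2 library lay above every input library. Its log2 fold change was 1.34 (SE 0.16, edgeR adjusted p = 4.27e-15), higher in 6 of 6 mice. Dnhd1, a dynein heavy chain gene of sperm flagella, held 35.9 to 53.4 CPM (median 41.4) against 13.5 to 21.0 in input (median 18.7), at 1.28. Prmt8, an arginine methyltransferase gene of brain, held 38.5 to 57.5 CPM (median 43.5) against 11.6 to 22.1 (median 21.1), at 1.25. Neither pair of ranges overlapped. Mier2, a gene of a corepressor that binds histone deacetylases (1.30, just outside the gene), Fyb2, of an adaptor in T cells (1.28), and the noncoding genes Gm32008 (1.26) and Gm30382 (1.24) were similar. Of the 3 intergenic regions in this set, that on chromosome 13 from 5593800 to 5596399 lay 34192 bases from the nearest annotated gene. It held 29.5 to 55.7 CPM in H3K9me2 and 11.0 to 19.4 in input, at 1.30. Those on chromosomes 2 and 16 lay at 1.29 and 1.27.

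Chosen in the same way, the regions furthest below input lay further from 0 and, with 1 exception, at gene starts. Without these limits the log2 fold changes of called regions ran from -2.94 to 1.57. The lowest of the chosen regions covered the start of Midn (chromosome 10, 80146200 to 80152599), whose product midnolin carries nuclear proteins to the proteasome. It held 3.84 to 16.6 CPM in H3K9me2 (median 9.08) and 57.7 to 79.1 in input (median 64.7), far apart in all mice. The log2 fold change was -2.67 (SE 0.18, edgeR adjusted p = 3.42e-46), lower in 6 of 6 mice. The neighbouring region over Atp5d, a subunit of ATP synthase, held 4.50 to 18.7 CPM against 32.5 to 47.8, at -2.11. A region shared by H2-DMa, which loads peptides on MHC class II, and Brd2, a reader of acetylated histones, held 4.50 to 9.35 CPM (median 8.42) against 39.5 to 52.1 in input (median 46.0), at -2.60. Both regions again showed no overlap between the 2 kinds of library. The start of Ubtf held 3.0 to 13.9 CPM (median 7.20) in H3K9me2 and 29.1 to 37.4 (median 31.5) in input. The start of Hnrnpa0 held 3.05 to 9.59 CPM (median 9.14) and 23.7 to 38.6 (median 33.1). Jund, a subunit of the AP-1 transcription factor, lay at -2.19, Nfe2l1, a regulator of proteasome genes, at -2.10, Bahcc1, a chromatin protein, at -1.93 and Zfp36, an mRNA decay factor, at -1.90. The only intergenic region among these 10, on chromosome 15 from 85669800 to 85671999, held 1.28 to 9.0 CPM in H3K9me2 and 23.1 to 34.6 in input, at -2.62. Its nearest annotated genes were the noncoding D130051D11Rik, 29276 bases away, Lncppara, and the microRNA genes Mirlet7c-2 and Mirlet7b at 34604 and 35320 bases.

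**Figure D3:**
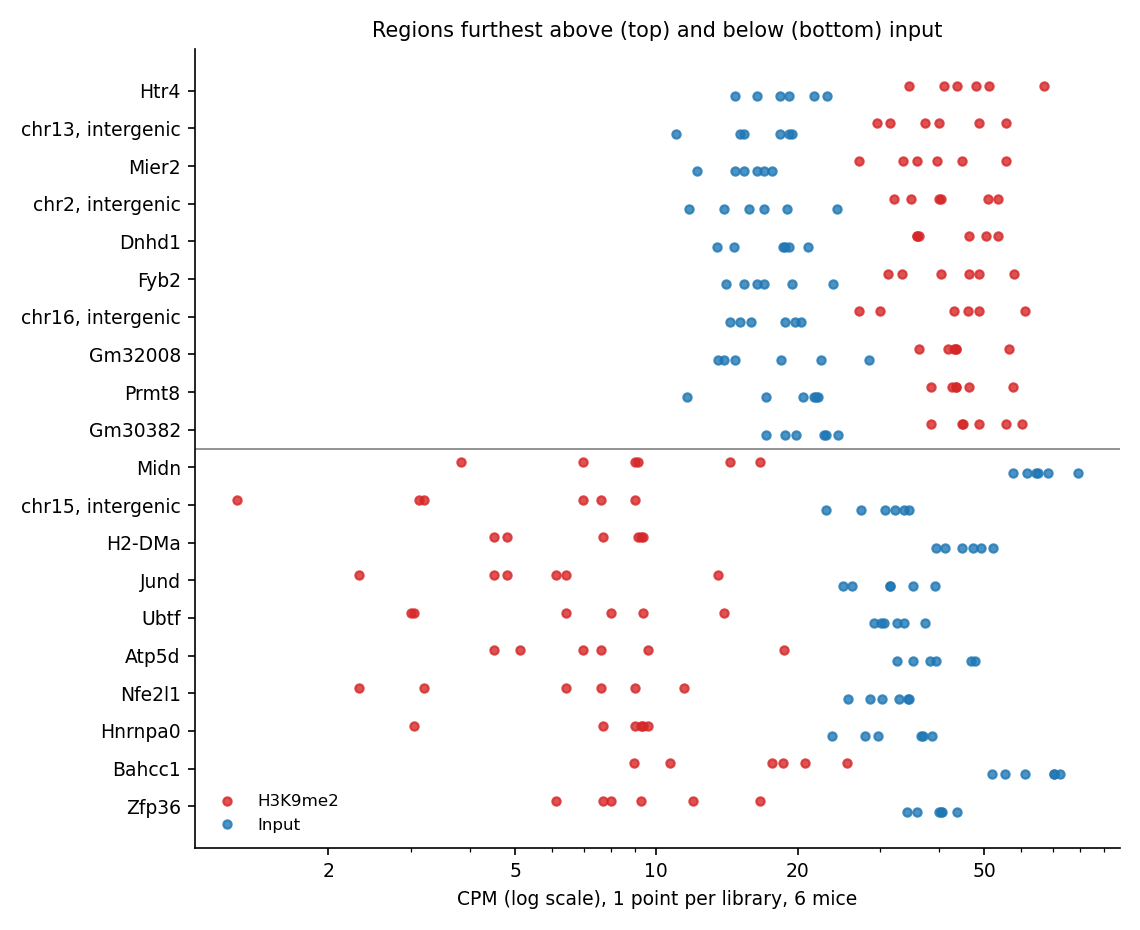
CPM on a log axis in the 6 H3K9me2 (red) and 6 input (blue) libraries of 10 regions above (upper rows) and 10 below input (lower rows). They were chosen as the furthest each way among called regions with the same sign in 6 of 6 mice. Only regions at or above the median abundance that overlap no other were eligible. In each row the points of the 2 kinds do not overlap, and the gap is wider in the lower rows, where Midn has 3.84 to 16.6 CPM in H3K9me2 and 57.7 to 79.1 in input.

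Some long genes held many higher regions. Cdh13, the gene of T-cadherin (1184.9 kb), had 25 of 29 tested regions called higher and 0 lower, with a median log2 fold change of 0.69. Camta1, a calmodulin-binding transcription activator, had 29 of 64 higher and 2 lower, Sorcs2, a sorting receptor of neurons, 21 of 38, and Dscaml1, a neuronal adhesion molecule, 14 of 16. Rbfox3 (the splicing factor NeuN), Cdh4 (R-cadherin), Zfp423 (a zinc finger factor) and Igsf21 (a synaptic adhesion protein) had 16 of 39, 16 of 20, 15 of 26 and 14 of 19 higher. Other genes held many lower regions. Gse1 had 35 of 57 lower and 1 higher. Tns1, which ties actin to focal adhesions, had 27 of 33 lower at a median of -1.08. Zmiz1 (a transcriptional coactivator) had 19 of 33 lower, Zmynd8 (a chromatin reader) 17 of 19, Dab2ip (a Ras GTPase activator) 17 of 31, Hspg2 (perlecan) 16 of 17 and Capzb (an actin capping subunit) 16 of 18.

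Within a gene the direction could turn. Rbfox3 had 16 higher and 4 lower regions, with values from 1.49 to -0.61, and Cdh4 had 16 higher and 1 lower. Zfp423 had 15 and 1, Grik4, a kainate receptor subunit, 12 and 2, and Cdh23, a cadherin of hair cells, 8 and 5. In Grik4 both lower regions lay at a start, whereas in Rbfox3 and Cdh4 0 of the lower ones did.

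Some neighbouring regions shared their call over long stretches. A run is a row of consecutive tested regions called in 1 direction with gaps of at most 1 Mb, and the DNA between them was not tested. Its span thus depends on how densely regions are listed. Of 4556 runs called higher 1828 held more than 1 region. The run called higher with the longest span reached over 2114.4 kb of chromosome 12 (105847600 to 107961999). It held 14 regions from Vrk1 to Bcl11b, a transcription factor of T cells and neurons, at a median of 0.69 (0.41 to 1.28). A run of 8 regions on chromosome 8 (114478000 to 116535799) took in Wwox and Maf at a median of 0.81, and 11 regions on chromosome 11 (33755200 to 35681399), from Kcnip1 to Slit3, an axon guidance ligand, lay at 0.73. Of 1631 runs of at least 2 regions called lower, which held up to 21 regions, the 3 that span most are given, and each spans less than the higher runs above. One of them, 9 regions over 377.8 kb of chromosome 3 (95313600 to 95691399), held 13 protein-coding genes at a median of -0.99. These include Setdb1, an H3K9 methyltransferase, Arnt, the partner of the hypoxia-inducible factors, and Mcl1, a survival factor. Of the other 2, each of 2 regions far apart, that on chromosome 3 held Nfkb1 and Ppp3ca and that on chromosome 5 held Prkag2 and Kmt2c.

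Gene groups were read against all 15826 genes with a tested region, of which 21.8% had regions called higher and none lower, 38.8% lower and none higher and 3.7% both. Among the 11532 protein-coding ones these shares were 18.5%, 43.8% and 4.54%. The median log2 fold change over all tested regions was 0.01. These groups were chosen with earlier results known, so the counts describe them and carry no test of the group. Many regions given for a gene also overlap or lie within 2 kb of another gene, which is not named each time.

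Most genes of basic cell function were lower. All 11 measured housekeeping genes were lower, with 17 of their 19 regions called and a median of -0.87. Gapdh, of glycolysis, held 6.10 to 18.6 CPM in H3K9me2 (median 11.2) and 25.1 to 52.1 in input (median 37.7), without overlap, at -1.83. Actg1, of cytoplasmic actin, lay at -1.84 and Hsp90ab1, a chaperone, at -2.03. Of 57 cytoplasmic ribosomal protein genes 46 were lower and 1, Rps3a1, higher (0.44, in 4 of 6 mice), with a median of -0.68. The Rps3a1 call was lost with DESeq2 and without mouse 19 (0.36), 23 (0.42) or 30 (0.30). Rps18 lay at -1.37. Of 54 oxidative phosphorylation genes 38 were lower, 0 higher and 1 both ways, at a median of -0.55. Uqcr11, of complex III, held 30.4 to 47.3 CPM against 74.8 to 95, at -1.15. Atp5b lay at -1.48 in a region it shares with the neighbour Baz2a. Ndufa10, of complex I, was the gene called both ways, with a region higher at its end (0.47).

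Immediate early genes, which cells switch on within minutes of a stimulus, had no region called higher. Of 27 measured, 23 were lower, and 35 of 46 regions, with a median of -0.85. Zfp36 held 6.10 to 16.6 CPM in H3K9me2 (median 8.64) and 34.2 to 43.7 in input (median 40.3). Dusp1, a phosphatase that ends MAP kinase signalling, held 3.0 to 9.29 (median 6.38) and 21.3 to 28.2 (median 25.4), at -2.08 (SE 0.26, edgeR adjusted p = 4.38e-13). In neither gene did H3K9me2 and input overlap. Ier3, a stress-induced survival gene, lay at -1.02 in a region it shares with Flot1.

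The genes that write, erase and read the mark were themselves lower or not called with 1 exception. Of 7 measured writers and cofactors 4 were lower, against 43.8% of all protein-coding genes with a tested region. With 6 of 22 regions lower (27.3%, against 20.5% of all) and a median of -0.05, the writers lay close to all tested regions. Ehmt1 held 4.64 to 15 CPM at its start (median 12.0) against 19.8 to 25.5 in input (median 22.2), at -0.96, and the region at Ehmt2, shared with Slc44a4, lay at -0.75. Setdb1 (-0.59, in a region shared with Cers2) and Wiz (-0.84), a zinc finger partner of G9a, were lower too. Cdyl, a chromodomain corepressor, had 1 of 3 regions higher at 0.39 (edgeR adjusted p = 0.0327), with overlapping values; it was not called without mouse 17 (0.33), 22 (0.39), 23 (0.38) or 27 (0.29). Of 7 demethylase genes 6 were lower and 0 higher. Kdm4b had 7 of 12 regions lower, the leading one at 33.6 to 60.0 CPM against 78.7 to 96.1, at -0.88. Jmjd1c lay at -1.67 in a region shared with Reep3, and Kdm7a at -1.34. Of 11 readers and lamina anchors 8 were lower and 0 higher, at a median of -0.62. Tmpo held 0 to 4.50 CPM at its start (median 2.2) against 13.7 to 18.6 in input (median 16.0), at -2.80. This rests on 9 counts in H3K9me2 and 149 in input, so the region passed the filter on low counts through input alone. It has no value for the area at risk. All 6 tested regions of Lmna, of the A-type lamins, were lower, its leading one at 30.1 to 46.4 CPM against 59.5 to 74.8. Trim28, a corepressor of repeats, lay at -1.11 in a region shared with Chmp2a, and Prr14, a tether of heterochromatin to the lamina, at -1.84 in one shared with Fbrs.

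Odorant receptor, germ line and keratin genes were more often higher than lower, which did not hold for all groups of genes known from other tissues: of 37 Hox genes 0 were higher and 19 lower, and of 12 cytochrome P450 genes 4 and 3. Some Hox genes share regions, and of their 51 regions 14 were lower (27.5%, against 20.5% of all) and 0 higher (against 21.0%). Of 15 measured odorant receptor genes 10 were higher and 0 lower, at a median of 0.63. Only 15 of 1106 had a tested region, so this describes a small share of the family. Olfr1410 held 43.6 to 61.5 CPM in H3K9me2 (median 56.9) and 23.1 to 38.9 in input (median 28.6), at 0.88. Olfr12 held 34.3 to 50.4 (median 44.0) and 20 to 28.5 (median 22.8), at 0.84 (SE 0.15, edgeR adjusted p = 9.95e-07). Both were free of overlap between the 2 kinds of library. Of 11 germ line genes 7 were higher and 0 lower, with a median of 0.35. Prm1 held 36.4 to 49.5 CPM (median 40.6) against 21.2 to 31.3 (median 25.0), at 0.73. Ddx4, an RNA helicase of germ cells, lay at 0.68 and Piwil2, of the piRNA pathway, at 0.71, both with an overlap between some libraries. Of 21 keratin genes, of epithelia and hair, 13 were higher, 1 lower and 1 both ways. Krt34, a hair keratin, held 24.9 to 52.8 CPM against 13.2 to 24.9, at 1.09, and Krt71, of the hair follicle, lay at 0.62.

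Synaptic genes were mostly higher, and receptor genes of neurons went both ways. Of 14 measured synaptic adhesion and neuronal genes 11 were higher, 1 lower and 2 both ways, and 73 of 133 regions were higher at a median of 0.43. Ptprt, a receptor phosphatase of synapses, held 36.0 to 60.4 CPM (median 43.4) and 14.7 to 23.1 in input (median 18.7), at 1.23. All 8 tested regions of Csmd2, a synaptic membrane protein, were higher, with 1.20 in the region of smallest p, and Ntm, of neurite adhesion, lay at 0.97. Nlgn2, the neuroligin of inhibitory synapses, was the lower gene, at 4.58 to 15.4 CPM against 18.5 to 30.1 at its start (-1.41). Of 30 neurotransmitter receptor genes 13 were higher, 6 lower, 2 both ways and 9 not called. Grid1 (a glutamate receptor of the delta type, 1.02), Grik4 (0.98) and Htr2a (a serotonin receptor, 0.88) were higher, whereas the NMDA receptor genes Grin2d (-1.13), Grin1 (-0.80) and Grin2c (-0.89) were lower. These lower regions are shared with neighbours, that of Grin2d with Kdelr1, that of Grin1 with Lrrc26 among others and that of Grin2c with Fdxr. Of 16 axonemal dynein and cilia genes 11 were higher and 4 lower, but with 16 of 68 regions higher and 12 lower and a median of 0.07 they lay close to all tested regions. Dnah9 held 16.5 to 35.2 CPM against 4.79 to 14.9, at 1.33, while Foxj1, the master regulator of motile cilia, had a lower region (-1.12) that also touches Rnf157.

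Cardiomyocyte genes fell on both sides. Of 19 measured sarcomere genes 9 were lower, 2 higher and 1 both ways, at a median of -0.15. Tnnc1, cardiac troponin C, held 4.50 to 15.6 CPM (median 10.2) at its start and 16.9 to 23.3 in input (median 19.8), at -0.97. The stretch before the Tnnc1 start holds 0 CpGs, but the region is shared with Nisch. Myl4, the atrial light chain, lay at -1.40 in a region shared with Cdc27 and Tcap, telethonin, at -0.92 in one shared with Pnmt. Myl2, the ventricular light chain, had 1 of 4 regions lower, at -0.50 at its end in a region shared with Ccdc63, while the region at its starts was not called (-0.14). Myom2, an M-band protein, was higher at 0.49, with 33.0 to 54.4 CPM against 22.0 to 33.7, but not without mouse 19 (0.36, edgeR adjusted p = 0.0693). Actn2, of the Z-disc, was higher at 0.68 in 1 of 2 regions and on few counts, 7.50 to 22.9 CPM against 4.79 to 11.6, and its call was lost without mouse 23 (0.54) or 30 (0.73).

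Calcium handling split between genes. All 6 tested regions of Atp2a2 (SERCA2, which pumps calcium back into the sarcoplasmic reticulum) were lower. The leading one held 1.50 to 10.4 CPM in H3K9me2 (median 5.88) and 13.6 to 23.3 in input (median 19.7), at -1.75. Jph2, which holds the dyad together, had 4 of 6 lower, with -1.01 at the start. By contrast Cacna1c, the pore of the L-type calcium channel, had 10 of 23 higher and 0 lower. Its leading region held 27.0 to 39.7 CPM (median 32.8) and 12.5 to 22.1 in input (median 17.6), at 0.85, and its start regions, at -0.02 and 0.20, were not called. Itpr2, an inositol trisphosphate receptor, had 7 of 14 higher, with 0.77 in the region of smallest p. Camk2d, the main cardiac CaM kinase, was lower at its start (-0.89) and higher in its body (0.57), the latter not called without mouse 27 (0.31, edgeR adjusted p = 0.271).

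Of 14 fatty acid oxidation and energy genes 8 were lower, 1 higher and 1 both ways. Slc2a4, the insulin-responsive glucose transporter, held 3.20 to 17.9 CPM against 23.7 to 32.3 in input, at -1.32, Acadvl, of long-chain fatty acid oxidation, lay at -1.23 and Lpl, lipoprotein lipase, at -0.92. Cpt1b, the mitochondrial fatty acid importer of muscle, lay at -1.20 in a region shared with Chkb. The higher gene, Ppargc1a, a regulator of mitochondrial genes, had an edgeR adjusted p of 0.0489 for a log2 fold change of 0.56 and overlapping values, and it was not called without mouse 19, 22, 23, 27 or 30 (0.44 to 0.61). Of 17 cardiac transcription factors 8 were lower, 2 higher and 3 both ways. All 6 regions of Mef2d and of Nfic and 14 of 15 of Nfix were lower. The leading Mef2d region held 41.8 to 70.3 CPM against 106.0 to 137.0, at -0.95. Tbx5, a patterning factor of the heart, had 3 of 4 regions higher (0.77 in the region of smallest p), and Nfia had 7 of 10 higher and 1 lower.

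**Figure D4:**
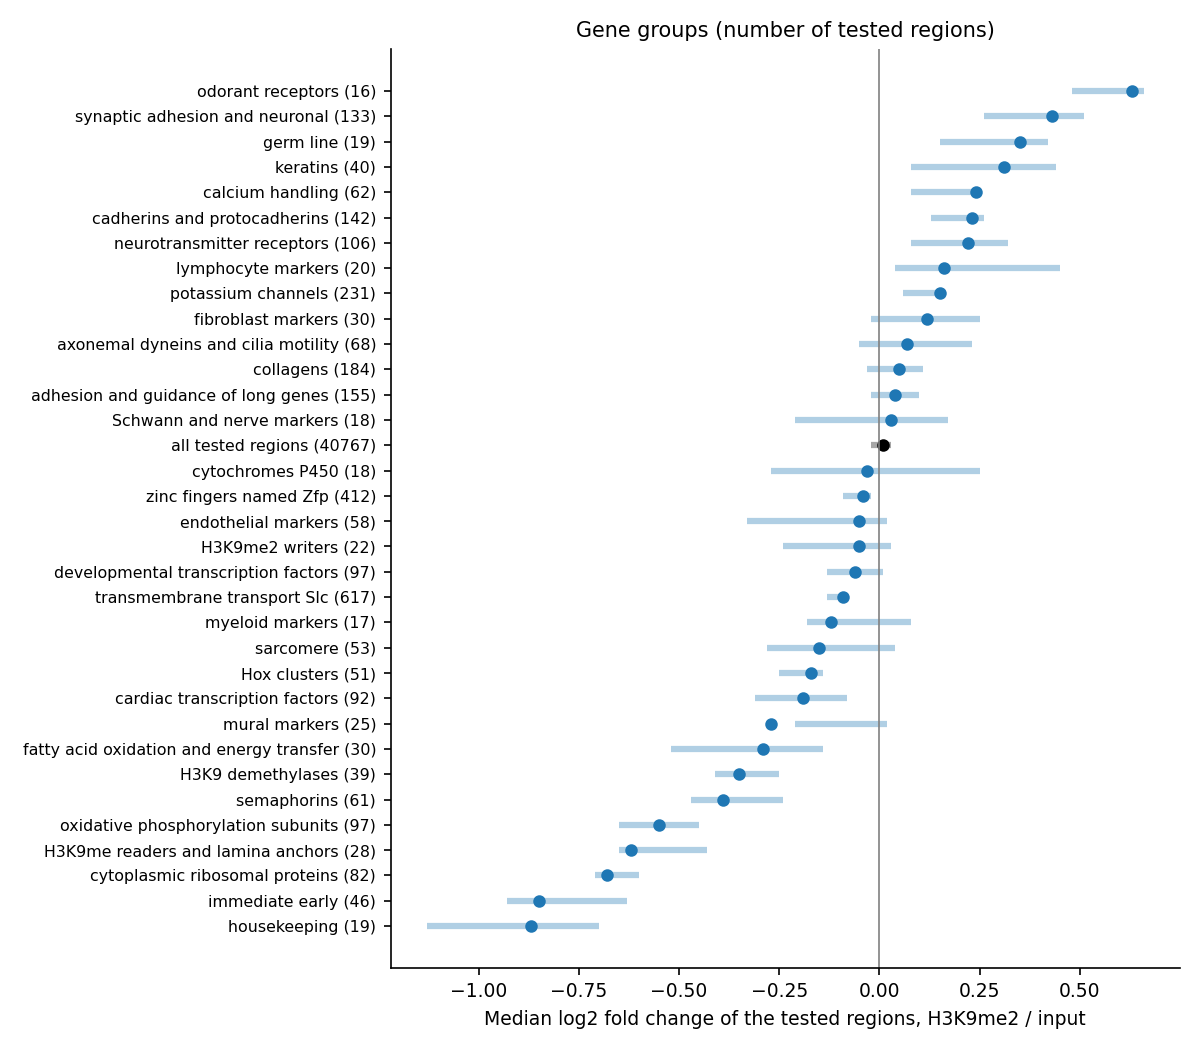
Median log2 fold change of H3K9me2 over input across the tested regions of each gene group (points, edgeR fit, groups with at least 15 regions), with the range of the medians of the 6 mice as bars and all tested regions in black. Housekeeping and immediate early genes lie lowest at -0.87 and -0.85 and odorant receptors highest at 0.63, each with the bar on its own side of 0.

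Marker genes of the other cells of the heart wall also went both ways, except those of adipocytes, and no such group held a majority of higher regions. The share of regions called higher ran from 0% in adipocyte to 40.0% in lymphocyte markers, against 21.0% of all tested regions. The share called lower ran from 5.0% in lymphocyte to 33.3% in adipocyte markers, against 20.5% of all. Of 13 endothelial markers 4 were lower, 1 higher and 2 both ways. Flt1, a VEGF receptor, showed both within 1 gene: the region at its upstream start held 4.64 to 14.4 CPM against 28.7 to 46.0, at -1.78, and another, in its body and within 2 kb of the start of the noncoding Gm35383, 47.3 to 62.3 against 33.9 to 38.9, at 0.60. Egfl7, secreted by endothelium, lay at -1.54 and Erg, an endothelial transcription factor, had 4 of 9 regions higher, led by one at 0.90. Of 8 mural markers 5 were lower and 1, Myh11 of smooth muscle myosin, higher (0.53). Of 8 fibroblast markers 3 were higher, 2 lower and 3 not called. Pdgfra, the receptor that marks cardiac fibroblasts, lay at -0.90 at its start. Ddr2, a collagen receptor, lay at 1.40 on few counts, 68 in H3K9me2 and 60 in input over all libraries of each kind. It held 10.3 to 25.5 CPM against 3.67 to 8.13, a level at which the filter can pass a region on its H3K9me2 libraries alone.

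Of 8 myeloid markers 3 were higher, 1 lower and 1 both ways, with the integrin Itgam at 0.87. Cd68 lay at -0.77 in a region shared with Eif4a1 and Mpdu1. Of 8 lymphocyte markers 4 were higher and 1 lower. Cd3g, of the T cell receptor complex, held 20.8 to 33.6 CPM against 8.71 to 16.4, at 0.89, and Pax5, which commits B cells, had 4 of 6 regions higher, the leading one at 0.87. Of 7 Schwann cell and nerve markers 2 were higher and 2 lower. Of 4 adipocyte markers 1, Plin4, was lower, at -0.88 in a region shared with Hdgfl2.

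Chromosomes differed with their gene content. Chromosome 13 held 2.81% of H3K9me2 counts and 2.34% of input on average, a log2 share ratio of 0.263 (0.233 to 0.338 over the mice). Chromosomes 1, 16 and 6 followed at 0.125, 0.118 and 0.114, and chromosomes 19 and 11 were lowest at -0.145 and -0.126. For each of these the exact paired permutation test gave an adjusted p of 0.0329 over 20 chromosomes, and chromosome 2, at -0.003, was the one that did not pass (exact adjusted p = 0.688). Over the 19 autosomes the ratio and the mean number of genes per Mb around the listed regions correlated at r = -0.89, a description of chromosomes that share the same libraries.

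**Figure D5:**
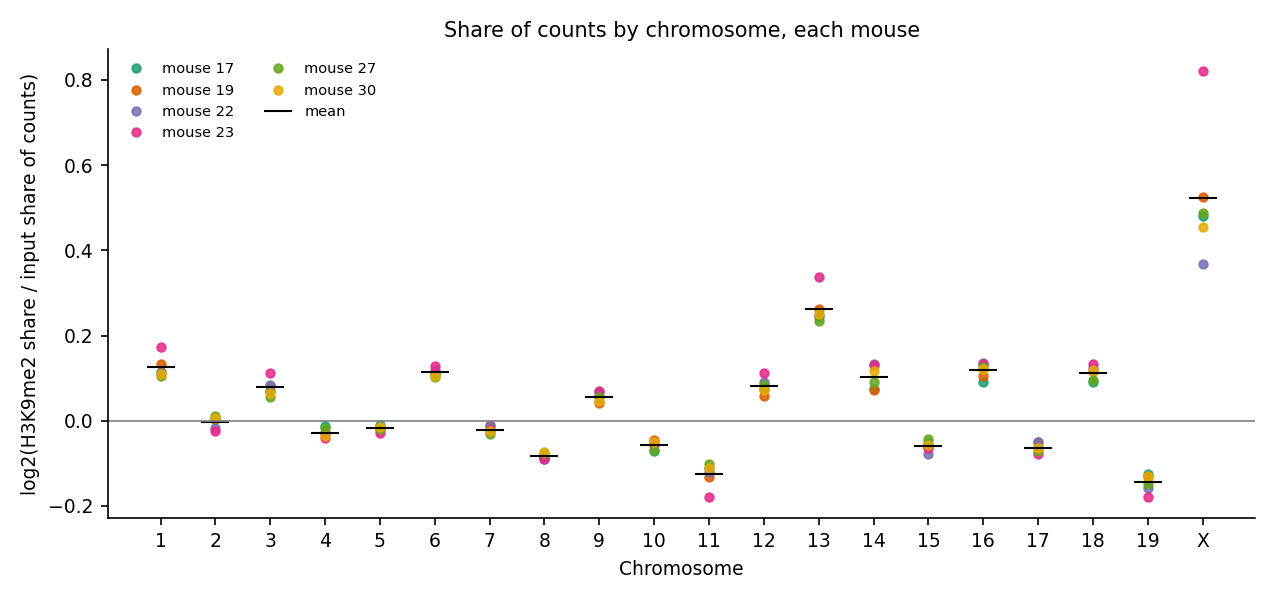
Log2 ratio of the share of H3K9me2 counts to the share of input counts on each chromosome, 1 point per mouse and a bar for the mean. X lies highest, from 0.367 to 0.822, chromosome 13 is highest among autosomes, from 0.233 to 0.338, and chromosomes 11 and 19 are lowest.

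The X chromosome had few listed regions but the largest ratio. Of its 66 tested regions 40 were higher and 1 lower, and its log2 share ratio averaged 0.523 (SD 0.156, n = 6). The ratio was 0.481, 0.525 and 0.455 in the female mice 17, 19 and 30 and 0.367, 0.822 and 0.488 in the male mice 22, 23 and 27. The sexes overlapped, and with 3 against 3 an exact permutation test cannot go below 0.1. The share of X in input was 0.116 to 0.137% in the females and 0.0692 to 0.0726% in the males. Counts on Y in input were 5, 113 and 4 in the females 17, 19 and 30 and 181, 60 and 31 in the males 22, 23 and 27, so female 19 lay above 2 of the males. Of these 394 counts 392 lay beyond 90722000, at the end of Y that holds the pseudoautosomal part shared with X, so they do not check the sex labels. Between the sexes 0 of 40767 regions were called by edgeR, with 2061 at an unadjusted p under 0.05, and 0 by DESeq2, with 164. Without mouse 19 edgeR called 0 too. Closest was a region of Naa35, an auxiliary subunit of an N-terminal acetyltransferase, at 0.95, 1.19 and 0.92 in the 3 females and -0.75, -0.73 and -0.89 in the 3 males (edgeR adjusted p = 0.279). Btbd11 had the same adjusted p of 0.279 with the opposite sign, at -0.08 on average in females and 1.33 in males. Tnk2, Pitpnm3 and Sin3a followed at an edgeR adjusted p of 0.845. On X the smallest p belonged to an intergenic region from 99381800 to 99383799, to Syp, of synaptic vesicles, and to Ogt, of O-GlcNAc transfer, at edgeR adjusted p of 0.948, 0.963 and 0.963.

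The area at risk of the same hearts, which went through the occlusions, gave fewer calls, and no region was called different between the biopsies. There 10994 of 40928 regions were called (26.9%). Of 16786 regions called in the remote myocardium and tested in both, 16411 (97.8%) had the same sign in the area at risk, and 8997 were called there in the same direction, 53.6% of the remote calls and 82.6% of the calls of the area at risk. The difference between biopsies was called in 0 of 42445 regions by edgeR, and while 1800 had an unadjusted p under 0.05, the lowest adjusted p was 0.0945. Htr4 lay at 1.34 in the remote myocardium and 0.82 in the area at risk, Dnhd1 at 1.28 and 0.45, Midn at -2.67 and -1.96, and Zfp36 at -1.90 and -2.08. These regions were chosen for their large values in the remote myocardium, so such pairs do not compare the biopsies evenly. On the regions tested in both biopsies, places were compared by the median log2 ratio of CPM over their regions in each mouse, not by the ratio of shares used above. For intergenic regions this median averaged 0.293 in the remote myocardium and 0.235 in the area at risk, and for gene starts -0.292 and -0.258. Of 16 such places 0 passed the test of the difference between biopsies (smallest exact adjusted p = 0.4), in which a single p cannot go below 0.03125. Gene bodies reached that value before adjustment, at 0.053 in the remote myocardium and 0.036 in the area at risk, further from 0 in the remote biopsy in 6 of 6 mice.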

How the data were processed

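Per the labels' protocols, chromatin of about 25 mg of cardiac tissue was crosslinked and digested enzymatically, 5 µg went into each precipitation, and libraries of 10 ng DNA, amplified by 12 PCR cycles, were read as pairs of 101 bases. The authors deposited raw counts, whole numbers per region of mm10 and library. Bowtie2 2.2.2, SICER 1.1 and edgeR are named without roles per the submitters' processing notes; how overlapping regions and duplicates were counted is not given in the sources used here. The deposited log2 fold change, its p-value and FDR are quoted only as the authors' deposited table, with the sign turned. Of the listed regions 20668 overlap another and 5286 have no count in the 12 libraries.

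Counts were tested with edgeR 4.0.16 (R 4.3.3): TMM, filterByExpr (40767 regions kept, 96.9% of counts), mouse as block, two-sided quasi-likelihood test, Benjamini-Hochberg FDR 0.05. The median SE of a log2 fold change was 0.19. The pairing comes from the animals; same-mouse deviations correlated at 0.00716 to 0.087. Chi-square per region between libraries of a group ran from 1.02 to 1.32 over all pairs, so none is a copy of another. Place shares were tested by flipping signs over the 6 mice. Genes, starts and promoters came from RefSeq (GRCm38.p6); windows cover 79.9% of protein-coding genes, and start sites of chromosome 18 were not used here. A gene owns regions overlapping it or within 2 kb, and list members are named by smallest p, up to 4 genes each way; regions are named by largest log2 fold change in 6 of 6 mice, among those not overlapping another and at or above the median abundance; genes by number of calls, runs by length. Some results these rules name are not reported here. The script was tested on simulated data. The members and lists were chosen with earlier results of these data known. Alternatives were no block, other size factors, DESeq2 1.42.0, no filter, each mouse left out, stricter thresholds and region subsets.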

Additional observations from a re-analysis of the deposited data

Results flagged for a closer look

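In 109 groups of 6 mice the value furthest from the rest was compared with the spread of the others, a check that chance trips in about 1 of 20 groups, and 14 stood apart. Of these, 12 belonged to mouse 23, the mouse whose differences were widest overall. Its log2 share ratio was 0.338 on chromosome 13, 0.822 on chromosome X, 0.367 for intergenic regions, 0.466 for intergenic regions 10 to 50 kb from a gene, 0.440 for genes over 300 kb, 0.130 for the narrowest quartile of regions, and 0.10 and 0.092 for parts 4 and 5 of each chromosome cut into 10 equal parts. By gene density it lay at 0.316 in the sparsest quartile, -0.103 in the third and -0.351 in the densest. Its median over the developmental transcription factors was 0.007, against -0.127 to -0.096 in the other 5 mice. In the 11 places other than this list the other 5 mice had the sign of mouse 23. Mouse 22 stood apart in the median of the Slc transporter genes, at -0.129, and mouse 17 at the intergenic region on chromosome 2 from 158571600 to 158573799, with a log2 ratio of 1.96.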

How the results depend on the processing

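The counts of calls, at 8551 higher and 8356 lower, moved past 1.5 times only with DESeq2, to 4224 and 4068. Without the replicate block, that is without pairing by mouse, 8360 and 8149 were called, 16318 of them also with it. Leaving out each mouse in turn gave 7177 to 7805 higher and 7157 to 7560 lower, fewest without mouse 23. Between the sexes 0 regions were called with each mouse left out, and with no replicate block 0 were called there and between the biopsies. Of 220 named regions DESeq2 lost 31 calls and the fit without the block 3, and none changed sign under any setting run. Place shares were not tested without single mice, because 5 pairs cannot go below 0.0625. Among place shares those that changed were all small. For part 1 of 10 equal parts of the chromosomes, with all regions that have a count, the ratio was -0.01 and no longer passed. Part 6, not called, turned to 0.007 in regions that overlap no other and to 0.002 as the median over regions. As medians over regions parts 7 and 8 (0.022 and 0.015) and the third quartile of width (0.017) no longer passed, nor did part 8 in regions that overlap no other (0.008). The cause was not tested.

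Group medians over regions at or above the median abundance turned sign for fibroblast (-0.10), myeloid (0.10), Schwann (-0.04) and vomeronasal and taste receptor genes (-0.41). They moved to -0.41 for H3K9 demethylases, 0.31 for calcium handling, -0.14 for developmental factors, -0.05 for mural, 0.57 for lymphocyte and -0.88 for adipocyte markers, -0.01 for Zfp genes, 0.19 for potassium channels, 0.16 for collagens, 0.35 for cadherins and 0.13 for adhesion and guidance genes. With regions overlapping the gene only, medians were -0.99 for immediate early, -0.11 for developmental, -0.80 for ribosomal and -0.27 for semaphorin genes. Low-count regions limit the depth: a median SE of 0.19 leaves small differences undetected.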

Other observations

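Several gene families not described above split by member. For comparison, of all protein-coding genes with a tested region 18.5% were higher, 43.8% lower and 4.54% both ways. Of all tested regions 21.0% were higher and 20.5% lower. Of 15 measured semaphorin genes, ligands of axon and vessel guidance, 10 were lower, 3 higher and 2 both ways, at a median of -0.39. Sema4c held 33.6 to 52.0 CPM in H3K9me2 (median 45) and 81.4 to 113.0 in input (median 99.8), without overlap, at -1.12, and Sema6b lay at -1.38. Sema4d had 7 of 10 regions higher, led by one at 0.44. Their receptors split as well. Plxnd1 had 6 of 7 regions lower (-0.87 in the region of smallest p) and Plxnb1 lay at -1.27, whereas Plxna4 had 7 of 10 higher, with 40.0 to 58.1 CPM against 23.9 to 29.6 in the leading region (0.91), and Plxnc1 had both of its regions higher (0.95). Robo2, a guidance receptor, had 1 tested region, at 12.8 to 30.2 CPM against 2.03 to 10.9, at 1.57. With input this low it may have passed the filter on low counts through its H3K9me2 libraries alone.

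Of 27 collagen genes 13 were higher, 7 lower and 2 both ways. Col4a1 and Col4a2, of the basement membrane, had 5 of 16 and 8 of 22 regions lower and 0 higher. The leading Col4a1 region held 34.8 to 75 CPM against 97.5 to 111.0, at -0.91. Col25a1, a membrane collagen of neurons, lay at 1.38 and Col13a1 had 5 of 16 regions higher (0.87 in the leading one). Of 56 potassium channel genes 26 were higher, 10 lower and 5 both ways. Kcnma1, the large-conductance calcium-activated channel, held 55.5 to 102.0 CPM against 28.2 to 55.6, at 1.06, and Kcnq1, the slow delayed rectifier of the heart, had 11 of 27 regions higher and 1 lower. Kcnn1 was lower at -1.51 in a region shared with Ccdc124, and at -0.32 in the region that holds its given RefSeq start. Kcnk4 was lower at -0.52 in a region shared with Catsperz and Esrra among others.

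Of 161 genes named Zfp 62 were lower, 29 higher and 5 both ways. With 19.4% of their regions higher, 25.0% lower and a median of -0.04, they lay close to all tested regions. Zfp978 on chromosome 4 held 328.0 to 540.0 CPM in H3K9me2 (median 446.0) and 229.0 to 326.0 in input (median 266.0), without overlap, at 0.68. Zfp993 (0.78), in the same family of similar genes, and all 4 regions of Zfp936 (0.86 in the leading one) were higher too; reads of such near-identical genes may be split between copies. Of 36 cadherin and protocadherin genes 22 were lower and 6 higher, while 57 of their 142 regions were higher and 13 lower. The gamma protocadherin genes overlap one another and share a lower region (-0.46), whose call was lost without mouse 17 (-0.37), 23 (-0.39) or 30 (-0.39).

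Of 37 Hox genes 19 were lower and 0 higher, from 14 of 51 regions lower (27.5%), some of them shared by neighbouring genes. Hoxa13 lay at -1.09 and a region shared by Hoxa7 and Hoxa9 at -0.98. Of 48 other developmental transcription factors 11 were lower, 9 higher and 2 both ways, with Irx5 at -0.99 and Sox5 at 0.76. Of 217 Slc transporter genes 74 were lower, 59 higher and 9 both ways. With 15.6% of their regions higher, 23.7% lower and a median of -0.09, they too lay near all tested regions. Slc9a9, an endosomal sodium-proton exchanger, held 20.5 to 44.3 CPM against 5.52 to 13.6, at 1.54, and Slc6a6, the taurine transporter, had 12 of 17 regions lower (-1.09 in the leading one). Of 12 cytochrome P450 genes 4 were higher and 3 lower, with Cyp3a13 at 0.67. Of 5 vomeronasal and taste receptor genes 3 were higher and 2 lower, the latter in long regions shared with neighbours, such as that of Tas1r1 at a median of 90.8 CPM against 164.0 (-0.89).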
